A study of Mus musculus with 15 samples.

Results

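Lung fibroblasts from Atm+/+ mice, taken 10 days after 10 Gy of X-rays, were compared with lung fibroblasts from Atm-/- mice that had received no treatment, both at passage 2. The libraries were chosen by their labels alone, 3 of each kind, which makes 6 of the 15 libraries of the study. All cells were primary lung fibroblasts of C57BL/6 mice, grown with 15% serum at 3% oxygen. Per the design text, each genotype was represented by 3 fibroblast strains, and irradiation served to induce premature senescence. Unirradiated Atm+/+ cells at passage 2 (3 libraries) are given last beside many of the results, though not all. They show where a gene stood with neither irradiation nor Atm loss. The irradiated cells differed from the Atm-/- cells by genotype, by irradiation and by the 10 days between exposure and harvest, and these cannot be told apart in this comparison. Neither the deleted stretch of Atm nor the sex of the mice is stated in the labels, nor whether the irradiated and unirradiated Atm+/+ strains were the same ones.

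Ionising radiation breaks DNA, and the kinase Atm is the main sensor that passes such breaks on to p53, which halts division and can lead to senescence, a lasting arrest. Senescent fibroblasts are known for secreting proteases, cytokines and growth factors and for rebuilding matrix. Cells that lack Atm repair breaks poorly and are known to switch on interferon-stimulated genes without infection. Setting the irradiated normal cells against early Atm-deficient cells asks which expression changes a single large dose of damage gives beyond those of cells that live without the sensor.

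RNA reads had been counted per gene. The irradiated libraries summed to 37.6, 39.2 and 34.1 M counts (M for mega), with 34.8, 36.1 and 34.4 M in the Atm-/- cells and 33 M, 34.2 M and 23.6 M in the unirradiated Atm+/+ cells (replicates 1 to 3, the order kept throughout). Replicates were close in the first 2 groups: the correlation of log2 CPM (counts per M counts, TMM-normalised) ran from 0.9904 to 0.9927 among irradiated libraries and from 0.9865 to 0.9883 among Atm-/- libraries. It was 0.9031 to 0.9753 among unirradiated Atm+/+ libraries, where replicate 3 stood apart. At equal depth that library held reads for 17252 genes, against 20390 and 21107 in the other libraries of its group, 21679 to 21988 in irradiated cells and 21224 to 21347 in Atm-/- cells. Atm-/- replicate 3 was the library with Xist, the RNA that coats an inactive X chromosome, at 139.5 CPM, while the other 5 libraries compared had 0.102 CPM or less. The same library had 0.0273 CPM or less of the Y-linked genes Eif2s3y, Kdm5d, Uty and Ddx3y, which the other 5 had at 1.74 CPM or more, so 1 of the 3 Atm-/- strains differed from the rest in sex-linked expression. Atm itself had 1.65, 2.01 and 1.4 CPM in irradiated cells, 1.61, 0.966 and 1.91 CPM in Atm-/- cells and 1.12, 0.877 and 3.1 CPM in unirradiated Atm+/+ cells. Its levels overlapped between all groups (irradiated minus Atm-/-, log2 fold change 0.18, SE 0.52, edgeR adjusted p = 0.911), so a gene-wide count gives no check on the genotype here.

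Of 18167 genes tested, 708 (3.9%) passed an edgeR adjusted p of 0.05, and 242 (1.33%) were higher and 466 (2.57%) lower in irradiated than in Atm-/- cells. At least 2-fold differences that passed numbered 119 higher (0.655%) and 258 lower (1.42%). The irradiated and Atm-/- libraries did not overlap for 55.1% of all genes (25.2% with irradiated above, 29.9% below), so a lack of overlap is common here and is given below as a description. The irradiated cells held less mRNA of the dividing-cell programme and of several interferon-stimulated genes, and more of genes for secreted factors, matrix, contractile proteins and p53 targets. The count depends strongly on how the spread is estimated, because all 15 libraries of the study share 1 estimate and a pair of them, outside the 6 compared here, held the fewest genes (unirradiated Atm+/+ passage 2 replicate 3 and Atm-/- passage 8 replicate 3). Without that pair 5738 of 18495 genes passed (31%), 2731 higher (14.8%) and 3007 lower (16.3%), among them all 708. The 6 compared libraries alone gave 7819 of 17316 (45.2%, with 21.9% higher and 23.3% lower). With 1 of the 6 compared libraries left out, 192, 231 and 279 genes passed without irradiated replicates 1, 3 and 2, and 261, 264 and 249 without Atm-/- replicates 1, 2 and 3. These fits kept the low pair in the shared estimate and left 1 group at 2 libraries. Genes noted below as failing such fits are among the 708 that passed in the 13. Counts of list members are therefore given from all 15 libraries and again from the 13. Those from the 13 are to be read beside the shares of all genes in that fit, 14.8% higher and 16.3% lower.

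**Figure D1:**
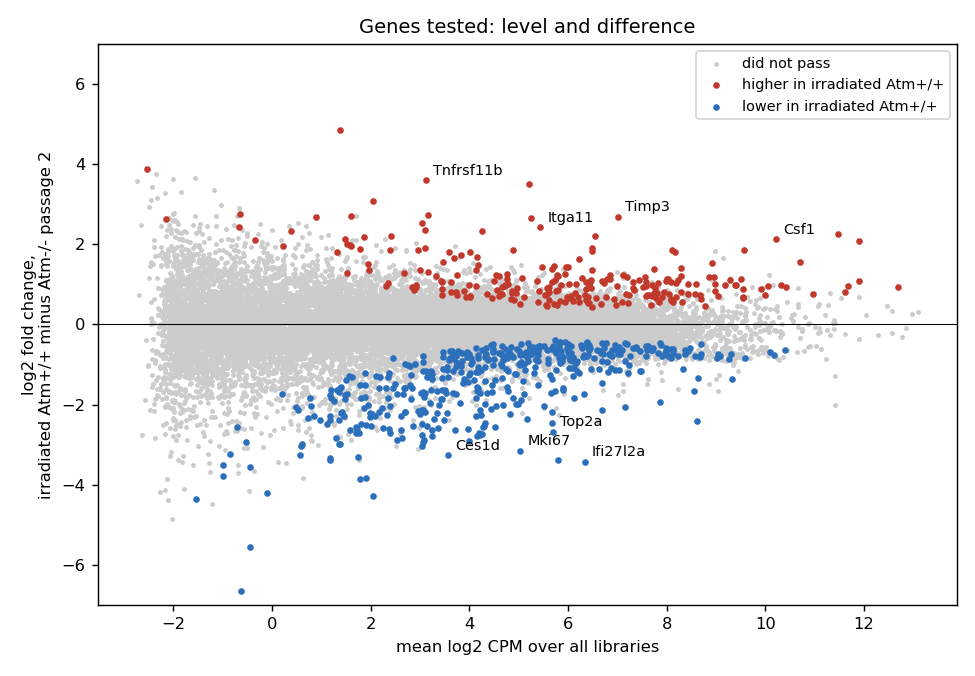
Each point is 1 of the 18167 genes tested, with its mean log2 CPM over all libraries on the x axis and its log2 fold change (irradiated Atm+/+ minus Atm-/- passage 2) on the y axis. Coloured points are the 242 genes higher and the 466 genes lower in irradiated cells at an edgeR adjusted p of 0.05. Csf1 stands among the most abundant genes that were higher, and Mki67, Top2a and Ifi27l2a are labelled among the genes that were lower.

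Genes of mitosis and of the G2 phase made up the largest decrease among the lists. Of 72 members tested, 40 were lower and 0 higher in irradiated cells by edgeR (0 higher also at an unadjusted p under 0.05, by DESeq2 and by limma), with a median log2 fold change of -2.09, against -0.03 over all genes. In the 13 libraries 67 were lower, and with 1 compared library left out 28 to 35 were. Mki67, a protein that coats mitotic chromosomes and marks dividing cells, had 4.78, 7.06 and 5.67 CPM in irradiated cells, 54.7, 44.9 and 56.8 CPM in Atm-/- cells and 48.3, 56.2 and 57.6 CPM in unirradiated Atm+/+ cells. Every irradiated library lay far below every other one, and the Atm-/- and unirradiated Atm+/+ libraries overlapped. The decrease was 8.9-fold (log2 fold change -3.16, SE 0.19, edgeR adjusted p = 2.2e-06). Top2a, the topoisomerase that untangles sister chromosomes, had 11.5, 12.4 and 12.8 CPM in irradiated cells, against 82.7, 71.5 and 80.4 CPM in Atm-/- cells (-2.68, SE 0.18, edgeR adjusted p = 7.3e-06). Its unirradiated Atm+/+ libraries were at 76.9, 87.0 and 53.7 CPM, with 1 inside the range of the Atm-/- cells, 1 above it and replicate 3 below it.

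The cyclins that drive entry into mitosis were lower as well. Ccnb1 had 0.8, 1.44 and 1.31 CPM in irradiated cells, 8.53, 8.97 and 8.67 CPM in Atm-/- cells and 8.04, 9.64 and 5.56 CPM in unirradiated Atm+/+ cells, and Ccnb2 was lower by 7.5-fold (-2.91, SE 0.38, edgeR adjusted p = 0.000854). Cdc20, an activator of the anaphase-promoting complex, had 4.93, 5.05 and 5.92 CPM in irradiated cells, against 29.4, 28.6 and 29.2 CPM in Atm-/- cells (-2.45, SE 0.19, edgeR adjusted p = 1.31e-05). Kinetochore and chromosome passenger genes showed the same order of groups: Ndc80 (-2.84), Nuf2 (-2.92) and Birc5 (-2.74) passed, as did Knstrn (-2.79) and Nusap1 (-2.75) of the mitotic spindle. Ccna2 (-2.78) passed with all libraries but in none of the 6 fits that left a compared library out (adjusted p from 0.0599 to 0.142), and Nuf2 passed in 2 of those 6. In the 13 libraries, without the low pair, both passed (edgeR adjusted p = 4.17e-06 and 1.92e-06). Exons of Ccna2, Cdc20, Knstrn, Nusap1 and Top2a overlap those of another gene in the annotation, as do those of Lig1, Rad54l, H2afx, Thbs1, Ccn2, Ramp2, Egfl7, Dpp4 and Pkm named below, so some of their counts could belong to it.

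Set against unirradiated Atm+/+ cells, which share the irradiated libraries with the first comparison, 43 of the 72 mitosis genes were lower in irradiated cells (all genes, 16.5% lower) with a median log2 fold change of -1.8. Without the pair of low libraries 66 were lower (median -2.02), in a fit where 46.3% of all genes passed in either direction. In Atm-/- against unirradiated Atm+/+ cells, which share libraries with both, the median was 0.25, or 0.07 without that pair. The mean over the list on the log2(CPM + 1) scale was 2.08, 2.2 and 2.25 in irradiated libraries, 3.82, 3.67 and 3.82 in Atm-/- libraries and 3.55, 3.86 and 3.04 in unirradiated Atm+/+ libraries.

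The promoters of these genes often hold the cell cycle homology region, TTTGAA, through which the MuvB complexes are known to repress or activate genes of G2 and mitosis. Searched on both strands in 300 bases (250 before and 50 after the start), it was present for 41 of 61 list genes with a promoter in the RefSeq table (67.2%), against 20.2% of the 27025 genes of that table and 14.6% of the 11663 tested genes matched to it. Among the members that passed it was present for 24 of 35 (68.6%), near the share of the whole list. Promoters of 2 genes with it are shown with their coordinates in GRCm38.p6, read 5′ to 3′ on the gene's strand, with the motif in capitals, since these genes had some of the lowest p-values of the list.
Cdca3, chr6:124829926-124830225, plus strand: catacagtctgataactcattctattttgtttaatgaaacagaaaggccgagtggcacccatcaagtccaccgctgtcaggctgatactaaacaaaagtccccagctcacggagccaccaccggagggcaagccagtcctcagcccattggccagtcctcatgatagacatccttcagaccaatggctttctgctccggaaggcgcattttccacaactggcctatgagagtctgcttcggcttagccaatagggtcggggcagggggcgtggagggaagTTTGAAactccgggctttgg
Mki67, chr7:135716330-135716629, minus strand: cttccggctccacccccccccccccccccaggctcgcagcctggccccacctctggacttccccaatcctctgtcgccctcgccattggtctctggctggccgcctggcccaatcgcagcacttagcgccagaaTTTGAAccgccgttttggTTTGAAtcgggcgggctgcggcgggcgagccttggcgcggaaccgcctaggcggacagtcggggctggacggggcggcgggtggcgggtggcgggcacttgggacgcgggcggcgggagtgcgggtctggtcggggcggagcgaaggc
The first belongs to Cdca3, a trigger of mitotic entry, which had 4.57, 5.64 and 5.17 CPM in irradiated cells, against 33.3, 27.1 and 28.9 CPM in Atm-/- cells (-2.54, SE 0.15, edgeR adjusted p = 2.2e-06). A match describes the sequence and does not show that a factor binds there.

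DNA replication genes were lower to a smaller extent. Of 58 tested, 27 were lower and 0 higher by edgeR (0 higher at an unadjusted p under 0.05, by DESeq2 and by limma), with a median log2 fold change of -1.05. The 13 libraries gave 46 lower and 1 higher, and 9 to 14 were lower with 1 compared library left out. Lig1, the ligase that joins Okazaki fragments, had 10.5, 11.6 and 12.1 CPM in irradiated cells, 36.5, 30.9 and 34.2 CPM in Atm-/- cells and 40.7, 37.8 and 53.1 CPM in unirradiated Atm+/+ cells. The irradiated libraries were all below the rest, a 3.0-fold difference from Atm-/- cells (-1.57, SE 0.17, edgeR adjusted p = 0.000241). Mcm6, a subunit of the replicative helicase, had 13.6, 17.6 and 12.8 CPM in irradiated cells, against 43.8, 48.7 and 54.7 CPM in Atm-/- cells (-1.75, SE 0.21, edgeR adjusted p = 0.000496). Its fellow helicase subunits Mcm2 (-1.2), Mcm3 (-1.42), Mcm5 (-1.96) and Mcm7 (-1.03) also passed. Nucleotide supply followed: Tyms, which makes thymidylate, was lower by 1.13 on the log2 scale (16.4, 15.6 and 17.1 CPM in irradiated cells, 37.6, 34.8 and 34.7 CPM in Atm-/- cells), and Dut, which keeps uracil out of DNA, by 1.21. Pclaf, a partner of the sliding clamp, was lower by 2.90 (1.11, 2.5 and 1.79 CPM in irradiated cells, 12.8, 11.9 and 15.6 CPM in Atm-/- cells, edgeR adjusted p = 0.00691).

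An E2F motif, TTTCGCGC or TTTGGCGC on either strand, was present for 15 of 48 replication genes with a promoter in the table (31.2%), against 0.929% of all its genes and 1.7% of the tested genes matched. Members that passed held it in 8 of 23 cases (34.8%). E2F factors, which the Rb family holds in check, are known to drive S phase genes. The promoters of Lig1 (1 of its 3 in the table) and Mcm6 are shown because both hold the motif and both genes were lower. Capitals mark it on either strand, and in Mcm6 matches on opposite strands overlap.
Lig1, chr7:13278576-13278875, plus strand: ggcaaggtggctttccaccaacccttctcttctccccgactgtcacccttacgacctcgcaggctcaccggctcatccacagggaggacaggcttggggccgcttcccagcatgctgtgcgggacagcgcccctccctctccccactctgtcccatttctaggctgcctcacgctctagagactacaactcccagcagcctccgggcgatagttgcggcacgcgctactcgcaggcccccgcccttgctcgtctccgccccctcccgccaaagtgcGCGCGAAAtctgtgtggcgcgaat
Mcm6, chr1:128359656-128359955, minus strand: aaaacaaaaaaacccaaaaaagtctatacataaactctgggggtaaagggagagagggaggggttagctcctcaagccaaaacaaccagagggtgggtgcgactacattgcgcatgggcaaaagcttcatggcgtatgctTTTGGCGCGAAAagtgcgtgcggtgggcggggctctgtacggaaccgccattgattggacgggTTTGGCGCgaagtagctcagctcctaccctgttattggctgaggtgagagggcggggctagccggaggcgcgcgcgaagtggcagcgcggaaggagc
The cell cycle homology region was present for 10 of those 48 genes (20.8%), against 20.2% of all genes of the table and 14.6% of the tested genes matched.

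Of 43 genes of break signalling and repair, 6 were lower and 0 higher by edgeR (0 higher at an unadjusted p under 0.05, by DESeq2 and by limma), and in the 13 libraries 18 were lower and 2 higher. The 6 were Rad54l, Rad51ap1, Exo1, Brca1, Eme1 and H2afx, of which all but H2afx, a histone variant marked at breaks, act in homologous recombination. Rad54l, a motor of strand exchange, had 0.749, 0.92 and 0.838 CPM in irradiated cells, 3.93, 3.71 and 3.82 CPM in Atm-/- cells and 2.64, 3.31 and 4.3 CPM in unirradiated Atm+/+ cells (-2.19, SE 0.31, edgeR adjusted p = 0.00173). H2afx was lower by 0.99 (20.3, 20.7 and 20.3 CPM in irradiated cells, 45.4, 33.8 and 42.1 CPM in Atm-/- cells). Members that did not pass included the end-joining genes Xrcc5 (-0.22), Xrcc6 (-0.27) and Lig4 (0.5; edgeR adjusted p = 0.73, 0.478 and 0.829) and the break sensors Rad50 (-0.01) and Nbn (-0.14). Without 1 compared library, 2 to 3 of the list passed as lower. Rad51ap1 passed in 1 and Exo1 in 2 of the 6 such fits, while Rad54l and H2afx passed in all.

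**Figure D2:**
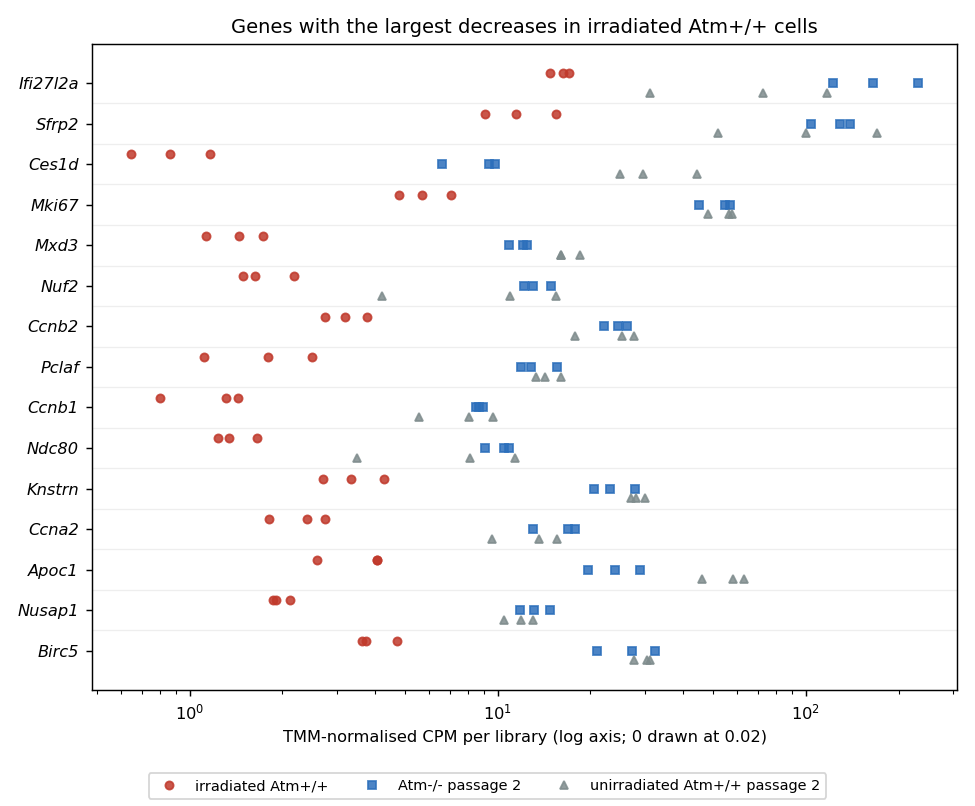
CPM per library on a log axis for the 15 genes with the largest decreases in irradiated cells among those that passed, with a mean log2 CPM of at least 2 and no overlap between irradiated and Atm-/- libraries. Red circles are irradiated Atm+/+, blue squares Atm-/- passage 2 and grey triangles unirradiated Atm+/+ passage 2 libraries. For the mitosis genes the Atm-/- and unirradiated Atm+/+ libraries lie together, and the irradiated libraries lie below both.

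Some of the largest decreases lay outside the cell cycle. Sfrp2, a secreted Wnt modulator of fibroblasts, had 9.11, 11.5 and 15.4 CPM in irradiated cells, 104.1, 139.5 and 129.1 CPM in Atm-/- cells and 52.0 to 169.8 CPM in unirradiated Atm+/+ cells. It stood 10.3-fold lower in irradiated than in Atm-/- cells (-3.37, SE 0.53, edgeR adjusted p = 0.00343). Ces1d, a carboxylesterase of lipid metabolism, stood in separate steps, with 0.645, 1.16 and 0.866 CPM in irradiated cells, 9.78, 9.4 and 6.6 CPM in Atm-/- cells and 29.6, 25 and 44.2 CPM in unirradiated Atm+/+ cells (irradiated minus Atm-/-, -3.26, SE 0.57, edgeR adjusted p = 0.00675). Apoc1, an apolipoprotein, showed the same order of groups with 4.05, 4.06 and 2.6 CPM in irradiated cells, 24.0, 28.9 and 19.7 CPM in Atm-/- cells and 63.0, 46.1 and 58.2 CPM in unirradiated Atm+/+ cells (-2.76, SE 0.49, edgeR adjusted p = 0.00734). Within the cell cycle, Mxd3, a Max partner of S phase, was also among the largest decreases, lower by 3.04 (SE 0.23, edgeR adjusted p = 1.31e-05). Sfrp2 and Mxd3 share exon sequence with a neighbouring gene.

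The largest increases included genes of secreted, adhesion, channel and epithelial envelope proteins. Csf1 (chr3:107741048-107760469, minus strand, GRCm38), the growth factor of macrophages, had 1716, 1328 and 1704 CPM in irradiated cells, 448, 335 and 300.6 CPM in Atm-/- cells and 183, 134 and 205 CPM in unirradiated Atm+/+ cells (log2 fold change 2.13, SE 0.21, edgeR adjusted p = 0.000159). Timp3, an inhibitor of metalloproteinases, had 341, 299 and 301 CPM in irradiated cells, 43.3, 51.3 and 51.7 CPM in Atm-/- cells and 33.5, 65.3 and 24.6 CPM in unirradiated Atm+/+ cells, so that its Atm-/- libraries lay within the range of the unirradiated ones (2.69, SE 0.36, edgeR adjusted p = 0.00126). Tnfrsf11b, the decoy receptor osteoprotegerin, had the largest ratio of the named genes, 12.1-fold, at 25.9, 29.8 and 19.6 CPM in irradiated cells and 1.27, 2.31 and 2.62 CPM in Atm-/- cells (3.60, SE 0.74, edgeR adjusted p = 0.0161), but passed in 1 of the 6 fits that left a compared library out. Timp3 overlaps exons of Syn3.

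Of 57 senescence-associated secretory genes tested, 8 were higher and 2 lower, with a median log2 fold change of 0.36. In the 13 libraries 21 were higher and 10 lower (all genes, 14.8% higher and 16.3% lower), and 2 to 4 were higher with 1 compared library left out. Csf1 and Tnfrsf11b are among the 8. Mmp10, a stromelysin, had 196, 160.5 and 210.2 CPM in irradiated cells and 54.1, 50.1 and 47.8 CPM in Atm-/- cells (1.90, SE 0.36, edgeR adjusted p = 0.0108). Lif, a cytokine of the Il6 family, had 113, 84.4 and 108.5 CPM in irradiated cells, 54.6, 41.0 and 51.9 CPM in Atm-/- cells and 30.5, 45.7 and 39.5 CPM in unirradiated Atm+/+ cells (1.05, SE 0.21, edgeR adjusted p = 0.0119). The growth factors Vegfa (1.18) and Fgf2 (0.71) and the protease Pappa (0.94) also passed. The lower members were Ccl5, a chemokine that interferon also induces, at 2.12, 2.1 and 2.01 CPM in irradiated cells, 8.7, 12 and 7.75 CPM in Atm-/- cells and 2.85, 0.63 and 3.82 CPM in unirradiated Atm+/+ cells, and Igfbp6, a binding protein of Igf2 (-1.16). The classical cytokines Il6 and Cxcl1 were not among those that passed in the fit of all 15 libraries, whose spread includes the low pair. Il6 had 280.1, 327 and 321 CPM in irradiated cells and 222, 242 and 259 CPM in Atm-/- cells (0.36, edgeR adjusted p = 0.788). Its libraries did not overlap, as for 55.1% of all genes. Cxcl1 overlapped between the groups (-0.24, edgeR adjusted p = 0.788). Mmp10 passed in 4 and Lif in 3 of the 6 fits with a compared library left out, and Vegfa in none.

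**Figure D3:**
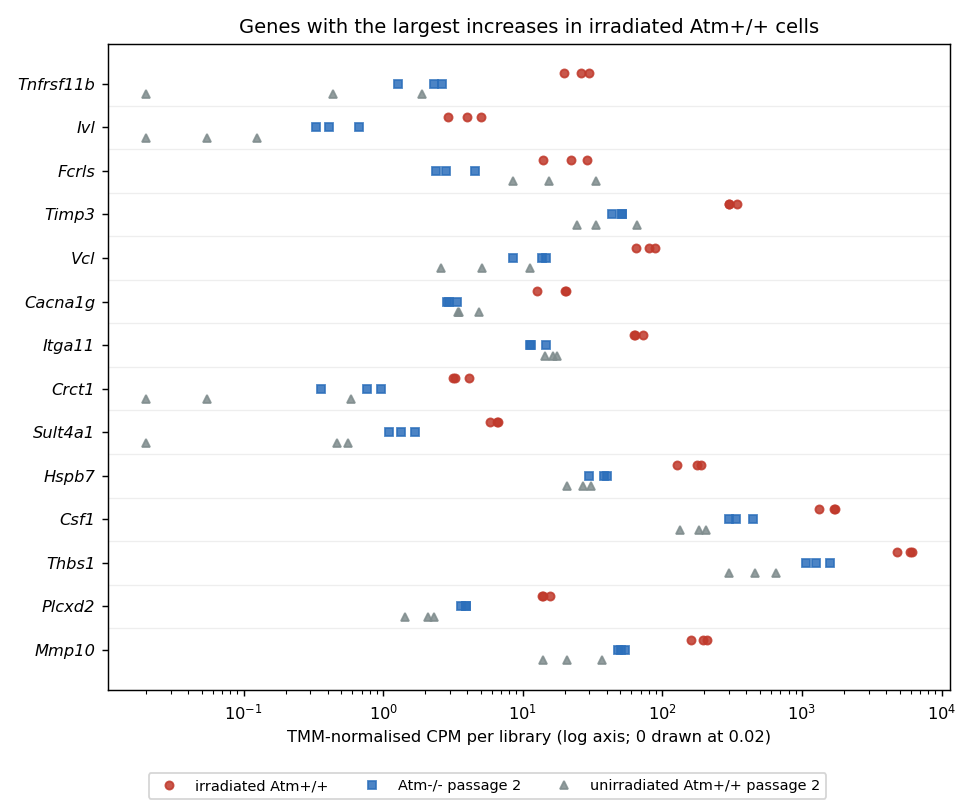
CPM per library on a log axis for 14 of the 15 genes with the largest increases in irradiated cells, chosen and drawn as in the plot of the largest decreases. Csf1 and Thbs1 stand highest in irradiated, next in Atm-/- and lowest in unirradiated Atm+/+ libraries, while Timp3, Cacna1g and Itga11 stand apart in irradiated libraries and Fcrls is lowest in Atm-/- libraries.

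Among 42 genes known as p53 targets, 9 were higher and 0 lower in irradiated cells by edgeR (2 lower at an unadjusted p under 0.05, 1 by DESeq2 and 0 by limma), with a median of 0.48. The 13 libraries gave 27 higher and 2 lower, and 2 to 4 were higher with a compared library left out. Plk2, a kinase that slows the cycle under stress, had 309, 287 and 309 CPM in irradiated cells, 137, 132 and 154 CPM in Atm-/- cells and 103, 134 and 84.5 CPM in unirradiated Atm+/+ cells (1.10, SE 0.19, edgeR adjusted p = 0.00575). Ccng1, an atypical cyclin of the p53 loop, stood in 3 separate steps, with 270.1, 285 and 281 CPM in irradiated cells, 128, 136 and 122 CPM in Atm-/- cells and 75.3, 83.6 and 46.2 CPM in unirradiated Atm+/+ cells (1.11, SE 0.22, edgeR adjusted p = 0.011). Pmaip1, the death promoter Noxa, had 16.8, 17.4 and 17 CPM in irradiated cells, against 6.67, 5.41 and 5.24 CPM in Atm-/- cells (1.56, SE 0.32, edgeR adjusted p = 0.0166). Mdm2, the ligase that degrades p53, was higher by 0.97 (128, 127 and 133 CPM in irradiated cells, 67.0, 68.3 and 62.9 CPM in Atm-/- cells). Of further targets that act in apoptosis, the death receptor gene Tnfrsf10b (0.97, edgeR adjusted p = 0.0377) and the nuclease gene Aen (0.56, edgeR adjusted p = 0.0352) were higher. Bax (-0.34) and Bbc3, which encodes Puma (-0.01), did not pass (edgeR adjusted p = 0.392 and 0.99). Ccng1 passed in 4 and Pmaip1 in none of the 6 fits with a compared library left out (adjusted p for Pmaip1 from 0.0527 to 0.0828). Both passed in the 13 libraries (edgeR adjusted p = 8.78e-05 and 5.16e-05).

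Of 19 CDK inhibitors and senescence markers, 1 was higher and 1 lower. The lower member was Hmgb2, a chromatin protein lost in senescence, at 3.72, 3.85 and 3.16 CPM in irradiated cells, 11.9, 11.5 and 11.7 CPM in Atm-/- cells and 10.9, 16.9 and 4.74 CPM in unirradiated Atm+/+ cells (-1.71, SE 0.33, edgeR adjusted p = 0.0119). Hmgb2 passed in none of the 6 fits with a compared library left out. Cdkn2a, which encodes p16 and Arf, overlapped between the groups at 8.98, 6.87 and 16.2 CPM in irradiated cells and 19.5, 10.9 and 11.2 CPM in Atm-/- cells (-0.38, edgeR adjusted p = 0.713). Lmnb1, the lamina protein whose loss marks senescence, had 4.44, 6.94 and 5.42 CPM in irradiated cells and 19.4, 22 and 21.6 CPM in Atm-/- cells without overlap, but did not pass with all 15 libraries (-1.91, edgeR adjusted p = 0.213). It passed in the 13 libraries at a similar fold (-1.87, edgeR adjusted p = 7.32e-05). In the 13 libraries 3 members of this list were higher and 9 lower.

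Matrix and contractile genes were higher in irradiated cells in part. Of 48 matrix and myofibroblast genes, 10 were higher and 4 lower (median 0.29), and in the 13 libraries 23 were higher and 6 lower. Thbs1, a matricellular protein that activates latent Tgfb, had 6110, 4754 and 5896 CPM in irradiated cells, 1267, 1072 and 1589 CPM in Atm-/- cells and 460, 653 and 301 CPM in unirradiated Atm+/+ cells, with no overlap between any 2 groups (irradiated minus Atm-/-, 2.09, SE 0.29, edgeR adjusted p = 0.00161). Ccn2, connective tissue growth factor, showed the same steps with 2679, 2548 and 2327 CPM in irradiated cells, 993, 659 and 937 CPM in Atm-/- cells and 331, 362 and 278 CPM in unirradiated Atm+/+ cells (1.54, SE 0.17, edgeR adjusted p = 0.000241). Itga11, a collagen-binding integrin chain of myofibroblasts, differed in that Atm-/- libraries were not above the unirradiated Atm+/+ ones: it had 72.6, 62.8 and 63.7 CPM in irradiated cells, 11.2, 11.4 and 14.6 CPM in Atm-/- cells and 16.4, 17.6 and 14.5 CPM in unirradiated Atm+/+ cells (2.42, SE 0.30, edgeR adjusted p = 0.000658). The crosslinking enzymes Lox (0.97) and Loxl2 (0.83) and the collagen Col12a1 (1.54) also passed. Fbln1, a fibulin of elastic matrix, went the other way with 32.6, 23.8 and 40.1 CPM in irradiated cells, 122.5, 162.5 and 118.2 CPM in Atm-/- cells and 414, 269 and 488 CPM in unirradiated Atm+/+ cells (-2.06, SE 0.26, edgeR adjusted p = 0.00081). Thbs2 (-1.13), Col5a3 (-1.17) and Col15a1 (-1.64) were lower too. With 1 compared library left out 8 to 10 were higher and 1 to 3 lower.

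Within the list of smooth muscle and pericyte genes, 8 members passed, and the 11 others did not. Of 19 tested, 6 were higher, all contractile: Acta2, Tagln, Myl9, Lmod1, Cnn1 and Myh11. The 2 that were lower, Rgs5 (-2.54) and Kcnj8 (-1.52), are pericyte markers. Acta2, smooth muscle actin and the marker of myofibroblasts, had 12002, 10751 and 10716 CPM in irradiated cells, 6276, 4999 and 6329 CPM in Atm-/- cells and 3732, 2836 and 3763 CPM in unirradiated Atm+/+ cells (0.93, SE 0.15, edgeR adjusted p = 0.00455). Lmod1, which nucleates actin filaments, had 271, 227.5 and 230.1 CPM in irradiated cells, 110.8, 97.9 and 110.3 CPM in Atm-/- cells and 50.6, 40.1 and 35.0 CPM in unirradiated Atm+/+ cells (1.19, SE 0.20, edgeR adjusted p = 0.0043). Both stood in 3 separate steps. Tagln (1.09) and Myl9 (0.99) showed the same order of groups. Vcl, vinculin of focal adhesions, was higher by 2.65 (87.8, 64.2 and 79.6 CPM in irradiated cells, 8.47, 13.8 and 14.7 CPM in Atm-/- cells, edgeR adjusted p = 0.0285). It passed in none of the 6 fits with a library left out, but did in the 13 libraries (edgeR adjusted p = 0.00464). Hspb7, a heat shock protein of muscle, was higher by 2.20 (SE 0.23, edgeR adjusted p = 0.000241). Over the 13 libraries 9 members of the list were higher and 3 lower, and 4 were higher and 0 to 1 lower with 1 compared library left out. Those 4 were Acta2, Tagln, Myl9 and Lmod1 in each of the 6 fits, so Cnn1 and Myh11 passed in none. Rgs5 and Kcnj8 never passed together in them. Tagln and Vcl share exon sequence with a neighbour.

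Some interferon-stimulated genes were lower in irradiated than in Atm-/- cells. Of 81 tested, 12 were lower and 0 higher by edgeR (0 higher at an unadjusted p under 0.05, by DESeq2 and by limma), with a median log2 fold change of -0.58. The 13 libraries gave 36 lower and 3 higher, and 3 to 7 were lower with 1 compared library left out. Unirradiated Atm+/+ cells show that the list was raised in both groups: against them 47 members were higher and 7 lower in irradiated cells (median 1.03, all genes 11% higher), and 46 were higher in Atm-/- cells (median 1.53, all genes 0.628% higher). Without the pair of low libraries the higher members numbered 60 in irradiated cells (median 0.98) and 63 in Atm-/- cells (median 1.5). In those fits 46.3% and 5.35% of all genes passed in either direction, so the counts stand on unlike backgrounds. These counts share their control libraries. The mean over the list on the log2(CPM + 1) scale was 4.41, 4.61 and 4.63 in irradiated libraries, 4.99, 5.35 and 4.9 in Atm-/- libraries and 3.69, 3.65 and 3.48 in unirradiated Atm+/+ libraries, with no overlap between groups.

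Members fell into separate patterns when the third group was set beside the others. In the first, the irradiated cells lay between the other groups. Oas1a, an oligoadenylate synthetase of antiviral defence, had 13.8, 14.4 and 13 CPM in irradiated cells, 33.1, 34.4 and 23.5 CPM in Atm-/- cells and 4.06, 3.67 and 5.8 CPM in unirradiated Atm+/+ cells (irradiated minus Atm-/-, -1.14, SE 0.24, edgeR adjusted p = 0.017). Irf7, the factor that amplifies interferon production, had 63.5, 64.6 and 82.2 CPM in irradiated cells, 131, 205 and 116 CPM in Atm-/- cells and 27.2, 22.6 and 26.8 CPM in unirradiated Atm+/+ cells (-1.10, SE 0.25, edgeR adjusted p = 0.0278). Rtp4 (-0.98), Xaf1 (-0.63) and Oas1g (-1.45) had this order too. Isg15 did as well, at 195, 201.5 and 246 CPM in irradiated cells, 284.5, 348 and 251 CPM in Atm-/- cells and 45.3, 40.1 and 35.5 CPM in unirradiated Atm+/+ cells, but its difference between irradiated and Atm-/- cells did not pass (-0.46, SE 0.22, edgeR adjusted p = 0.299).

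In the second pattern the irradiated cells stood at or below unirradiated Atm+/+ cells. Psmb8, a catalytic subunit of the immunoproteasome, had 16.3, 20.7 and 20.4 CPM in irradiated cells, 46.9, 50 and 39.4 CPM in Atm-/- cells and 47.4, 33.3 and 53.6 CPM in unirradiated Atm+/+ cells (-1.25, SE 0.21, edgeR adjusted p = 0.00575). Ifitm1, a membrane protein that blocks virus entry, had 4.26, 4.01 and 5.67 CPM in irradiated cells, 13.8, 16.3 and 13 CPM in Atm-/- cells and 28.1, 28.2 and 16.7 CPM in unirradiated Atm+/+ cells (-1.63, SE 0.26, edgeR adjusted p = 0.00358). Ifi27l2a, a mitochondrial interferon-induced protein, was 10.8-fold lower at 16.3, 14.8 and 17 CPM in irradiated cells, 165, 231 and 123 CPM in Atm-/- cells and 72.4, 31.2 and 117.5 CPM in unirradiated Atm+/+ cells (-3.43, SE 0.51, edgeR adjusted p = 0.00227). Oas1a, Oas1g, Ifi27l2a and the Ifitm genes have close relatives that could share reads, and Psmb8 overlaps a neighbour's exons. Whether the 2 patterns differ was not tested, since they were read from these values. Parp14 (-0.78), Nmi (-1.24) and Ifitm3 (-0.83) passed as well.

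Upstream of these genes, the 18 tested sensors of cytosolic nucleic acid gave 0 higher and 0 lower by edgeR (1 higher and 5 lower at an unadjusted p under 0.05, 1 and 2 by DESeq2, 0 by limma), with a median of -0.19, and 1 higher and 4 lower in the 13 libraries. Of 29 NF-kB feedback and target genes 1 was higher and 0 lower by edgeR (5 lower at an unadjusted p under 0.05, 4 by DESeq2, 0 by limma), and 4 were higher and 5 lower in the 13 (all genes, 14.8% higher and 16.3% lower). The 1 was Ptgs2, the inducible cyclooxygenase, at 117, 129.9 and 127 CPM in irradiated cells, 30.2, 28.0 and 47.1 CPM in Atm-/- cells and 13.2, 15.3 and 20.7 CPM in unirradiated Atm+/+ cells (1.83, SE 0.27, edgeR adjusted p = 0.00212). Among 20 immediate early genes, Fosb, an AP-1 subunit, passed as higher, but its groups overlapped, with 80.8, 5.64 and 69.6 CPM in irradiated cells and 2.99, 2.41 and 8.43 CPM in Atm-/- cells (3.50, SE 0.81, edgeR adjusted p = 0.0288), and it passed in 2 of the 6 fits with a library left out. Klf2, a flow-responsive factor, was lower by 0.73 (edgeR adjusted p = 0.0369) and passed in 1 of those 6. The 13 libraries gave 6 higher and 1 lower immediate early genes of 21.

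**Figure D4:**
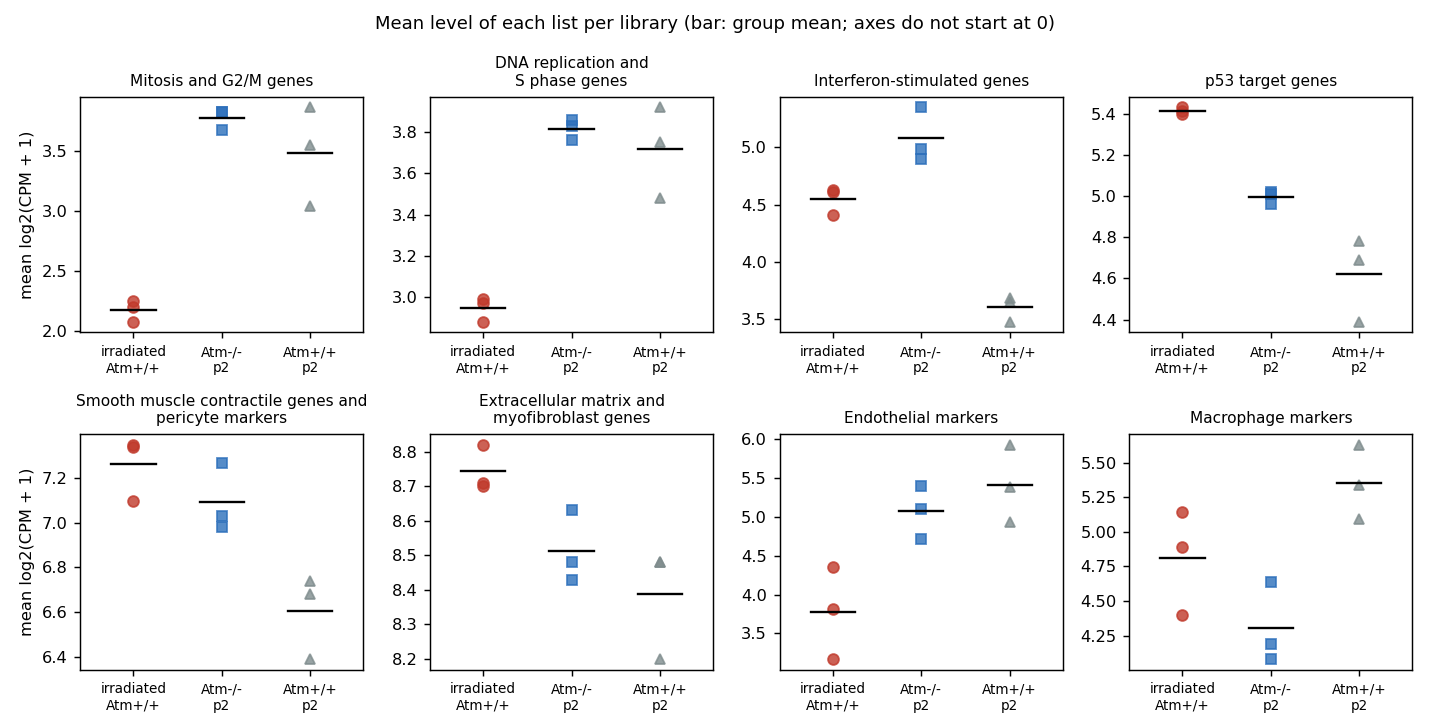
Mean log2(CPM + 1) over the members of 8 lists, 1 point per library and a bar for each group's mean, with irradiated Atm+/+, Atm-/- and unirradiated Atm+/+ passage 2 from left to right, on axes that do not start at 0. Mitosis and replication genes are low in irradiated libraries alone, the interferon list is highest in Atm-/- libraries and lowest in unirradiated Atm+/+ ones, and the p53 list is highest in irradiated libraries.

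Markers that define fibroblasts were abundant in all 3 groups, with a summed level of 23276 to 26885 CPM in irradiated cells, 24936 to 31333 CPM in Atm-/- cells and 23097 to 35768 CPM in unirradiated Atm+/+ cells. Of 12 such genes 0 were higher by edgeR (0 at an unadjusted p under 0.05, by DESeq2 and by limma) and 1 was lower, Fap, a surface protease, at 10.1, 7.58 and 9.64 CPM in irradiated cells and 21.0, 20.1 and 22.2 CPM in Atm-/- cells (-1.21, SE 0.20, edgeR adjusted p = 0.00431), with the same counts in the 13 libraries. Col1a1 had 7752, 6272 and 6322 CPM in irradiated cells and 7648, 7594 and 9996 CPM in Atm-/- cells (-0.31, edgeR adjusted p = 0.499). Among 33 markers of fibroblasts resident in the lung 1 was higher, Macf1 (0.70), and 3 were lower. These were Ces1d, Ly6a, the surface antigen Sca-1, at 69.0, 77.6 and 89.3 CPM in irradiated cells, 301, 381 and 224 CPM in Atm-/- cells and 291, 218 and 292 CPM in unirradiated Atm+/+ cells (-1.94, SE 0.23, edgeR adjusted p = 0.000496), and Dpp4, a peptidase of adventitial fibroblasts (-1.83), which passed in 2 of the 6 fits with a compared library left out. The 13 libraries gave 3 higher and 9 lower.

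Markers of other cell types moved with the comparison. Of 18 endothelial markers 4 were lower and 0 higher by edgeR (1 higher at an unadjusted p under 0.05, 0 by DESeq2 and by limma), with a median of -1.46, and in the 13 libraries 13 were lower and 1 was higher. Their summed level was 361 to 602 CPM in irradiated cells, 722 to 1079 CPM in Atm-/- cells and 994 to 1642 CPM in unirradiated Atm+/+ cells, and none of the 18 was at 0 in all libraries. Ramp2, a receptor partner of vessels, had 5.42, 10.2 and 3.86 CPM in irradiated cells and 22.7, 27.2 and 36.0 CPM in Atm-/- cells (-2.13, SE 0.36, edgeR adjusted p = 0.00546). Plvap (-1.67), Egfl7 (-1.74) and Lyve1 (-2.71) also passed, but Egfl7 in 1, Plvap in 3 and Lyve1 in none of the 6 fits with a compared library left out. Pecam1, a defining marker, had 39.1, 68.3 and 21.8 CPM in irradiated cells and 79.4, 111.1 and 137 CPM in Atm-/- cells without passing (-1.34, edgeR adjusted p = 0.122). The pericyte markers Rgs5 and Kcnj8 were lower too, while the other pericyte markers tested did not pass. In bulk RNA, fewer cells of a type and less RNA per cell cannot be told apart. Their part in the other results was not tested.

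Macrophage markers gave 1 higher and 1 lower of 24, with a median of 0.67 and a summed level of 1606 to 2872 CPM in irradiated cells, 1168 to 1878 CPM in Atm-/- cells and 2592 to 4354 CPM in unirradiated Atm+/+ cells. Adgre1, the F4/80 antigen, had 15, 8.78 and 18.5 CPM in irradiated cells, 4.51, 2.95 and 4.26 CPM in Atm-/- cells and 6.76, 8.77 and 7.16 CPM in unirradiated Atm+/+ cells (1.85, SE 0.34, edgeR adjusted p = 0.0121), and passed in 2 of the 6 fits with a library left out. Marco, a scavenger receptor, was lower (-1.23, SE 0.32, edgeR adjusted p = 0.0473) and passed in none of those 6. Fcrls, a gene of resident macrophages and microglia in mice, was among the largest increases at 22.3, 14 and 28.8 CPM in irradiated cells, 4.51, 2.82 and 2.4 CPM in Atm-/- cells and 15.4, 8.47 and 33.6 CPM in unirradiated Atm+/+ cells (2.74, SE 0.49, edgeR adjusted p = 0.00748), so that Atm-/- cells were the low group. Over the 13 libraries 7 markers were higher and 2 lower. Csf1, the macrophage growth factor, was also higher in irradiated cells, as given above. How the macrophage level bears on either difference was not tested.

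Remaining cell types were scarce. Of 12 epithelial markers tested 1 was lower, the keratin Krt18, at 0.181, 0.118 and 0.279 CPM in irradiated cells and 1.11, 1.6 and 1.91 CPM in Atm-/- cells (-2.99, SE 0.60, edgeR adjusted p = 0.014), which passed in 1 of the 6 fits with a library left out. Epcam was at 0.152 CPM or less in these 6 libraries. The list gave 1 higher and 6 lower of 13 in the 13 libraries, with a median of -1.15 over the 12. Outside the list, Ivl, the epithelial envelope protein involucrin, had 5.01, 2.9 and 4 CPM in irradiated cells, 0.665, 0.407 and 0.327 CPM in Atm-/- cells and 0.124, 0.0548 and 0 CPM in unirradiated Atm+/+ cells (3.08, SE 0.50, edgeR adjusted p = 0.00394). Crct1 was higher by 2.33 but passed in none of the 6. It had 3.18, 3.28 and 4.11 CPM in irradiated cells and 0.969, 0.762 and 0.355 CPM in Atm-/- cells. Both genes met the rule on mean log2 CPM (2.04 for Ivl and 4.25 for Crct1 over all libraries) only with the passage 8 libraries counted in. Of 9 mesothelial and 3 lymphocyte markers tested, 0 passed in either direction by edgeR (1 higher and 1 lower of the mesothelial ones at an unadjusted p under 0.05, 1 lower by DESeq2 and by limma, and 0 of the lymphocyte ones by any tool). The 13 libraries gave 1 lower mesothelial marker and no lymphocyte marker. Cd3e, Cd8a, Ms4a1 and Gzma, defining genes of T and B cells, were at 0 in all 6 libraries compared.

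**Figure D5:**
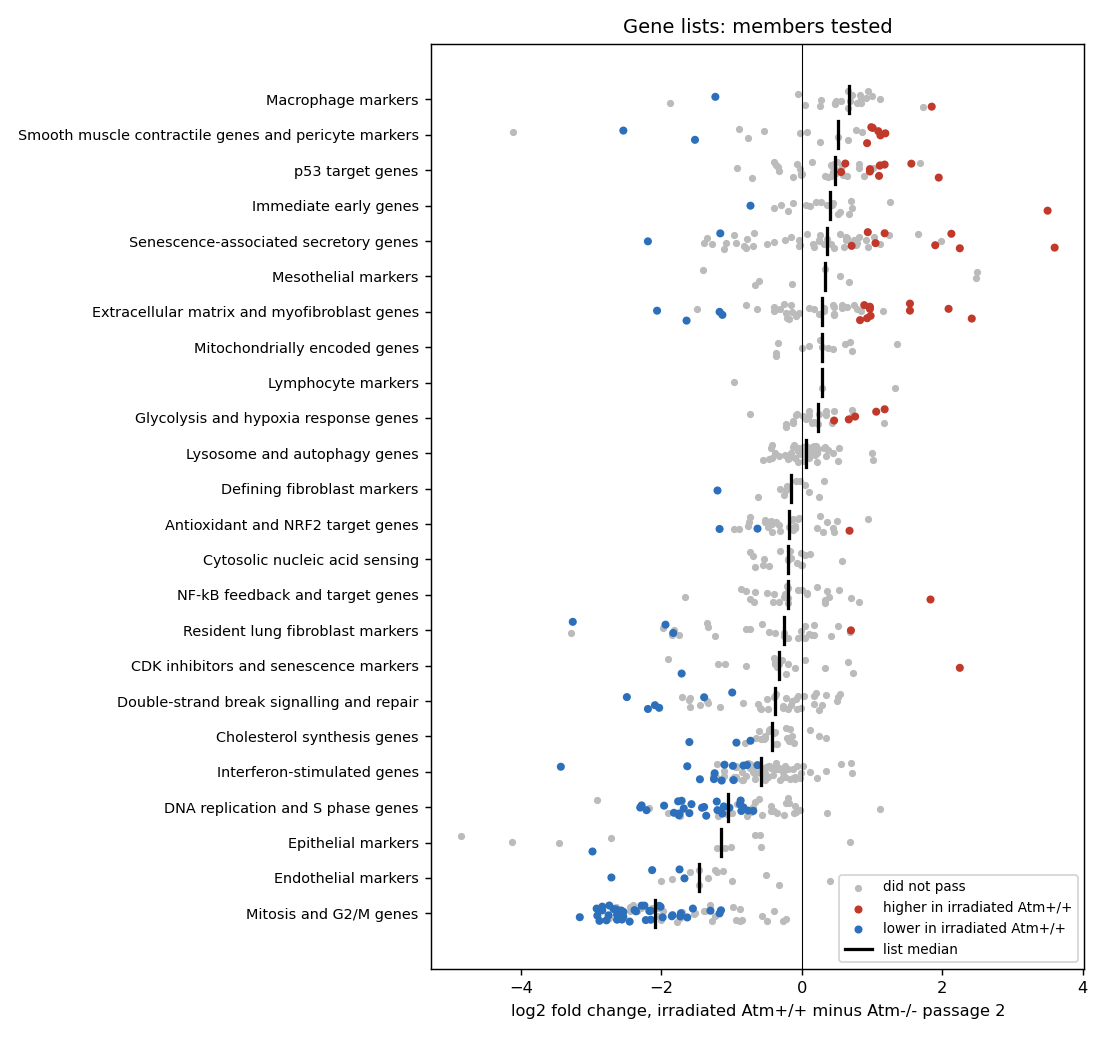
Log2 fold change (irradiated Atm+/+ minus Atm-/- passage 2) of each tested member of 24 lists, 1 point per gene, with black bars for list medians and colour for members that passed an edgeR adjusted p of 0.05. The list of mitosis genes lies furthest to the left with a median of -2.09, and the largest positive median is that of the macrophage markers at 0.67, a list in which 1 member passed as higher.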

How the data were processed

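The authors deposited gene counts (whole numbers, not normalised) and TPM (transcripts per M transcripts) for 15 libraries. The submitters' processing notes name featureCounts, SAMtools 1.3.1 and mm10. Aligner, annotation release and strandedness: not given in the sources used here. Without strand, overlapping and antisense genes cannot be separated. Counts were tested with edgeR 4.0.16 (R 4.3.3): filterByExpr, TMM, 1 robust quasi-likelihood fit with a mean for each of 5 groups over all 15 libraries, and Benjamini-Hochberg adjustment over all 18167 genes with a threshold of 0.05. SE is the absolute log2 fold change over the square root of F. Replicates are separate strains per the design text.

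Gene lists and tests were chosen with earlier results of these data known, and lists were counted, not tested. Named genes are the 15 largest changes each way that passed with a mean log2 CPM from 2 upward and no overlap between the compared libraries, up to 4 members per list with the lowest p, and Atm. Other members are named to complete a small count or with a value that did not pass, chosen after values were seen. A few single genes are not reported here. Symbols are from GENCODE vM21, promoters from RefSeq (GRCm38.p6). Interferon-response and AP-1 motifs were searched as well, but 63 of 81 and 39 of 57 genes of their lists had a promoter, under 80%, so that check is void. Alternatives used DESeq2 1.42.0, DESeq2 size factors, no filter, a strict filter (1 CPM in 3 libraries, mean count 50), limma 3.58.1 on log2(TPM + 1) and log2(TPM + 0.1), other sets of libraries and a replicate block. The test was checked on simulated data with 100 genes changed by a log2 fold change of 1 and 100 by 2. edgeR recovered 32% and 80% of them, with 6.67% of its calls false. DESeq2 recovered 50% and 88% with 29.9% false, and limma 34% and 79% with 9.6% false. Every simulated library took its spread from the fit of all 15, and far fewer genes were changed than passed in the 13 libraries. The shares recovered and false may thus differ in the data. A gene that did not pass can still differ 2-fold, and counts by DESeq2 might hold many false calls.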

Additional observations from a re-analysis of the deposited data

How the results depend on the processing

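The number of genes that passed between irradiated and Atm-/- cells (708, with 242 higher and 466 lower) moved most with the libraries that share the estimate of spread: it was 7819 in the 6 libraries compared alone (3785 higher, 4034 lower) and 5738 in the 13 libraries (2731 higher, 3007 lower), where 705 and 708 of the 708 were kept. DESeq2 gave 1622 (691 higher, 931 lower), no filter on low counts gave 468 (304 lower), limma on log2(TPM + 1) gave 421 higher, limma on log2(TPM + 0.1) gave 427 (227 lower), and log2(TPM + 1) with no filter gave 398 higher and 279 lower. The share of calls that were higher was 34.2% by edgeR and 53% by limma on log2(TPM + 1), where the median of all genes shifted to 0.11. Leaving out 1 compared library gave 192 to 279 genes (86 to 132 higher, 106 to 175 lower), with 1 group then at 2 libraries. The replicate number as a block gave 592 genes. Replicate numbers did not pair irradiated with Atm-/- libraries (correlations of deviations from the group means 0.03, 0.01 and -0.11), so the block says only that they share a number. Of the 80 genes chosen by the naming rule that passed, 41 passed under each alternative run that gave a value. With each compared library left out 44 passed, and none of the 80 changed direction. Other members named in the text were not followed gene by gene through these runs, apart from the 13 libraries. At these depths, differences of genes below about 1 CPM rest on few reads. The p-values of the main fit rest on a spread within groups shared over all 15 libraries, not on that of the 6 compared alone. The median SD of log2 CPM was 0.123 in irradiated, 0.15 in Atm-/- and 0.461 in unirradiated Atm+/+ cells. Under the strict filter the lymphocyte list had no gene left.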

Other observations

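Metabolic genes not described above changed to a small extent. Of 29 glycolysis and hypoxia response genes, 5 were higher and 0 lower in irradiated than in Atm-/- cells by edgeR (1 lower at an unadjusted p under 0.05, 0 by DESeq2 and by limma), with a median log2 fold change of 0.23, and 14 were higher and 1 lower in the 13 libraries. Ero1l, an oxidase of protein folding that hypoxia induces, had 297, 254 and 293 CPM in irradiated cells, 142, 122.5 and 140.4 CPM in Atm-/- cells and 94.2, 81.6 and 90.8 CPM in unirradiated Atm+/+ cells (1.06, SE 0.14, edgeR adjusted p = 0.00108). Pkm, pyruvate kinase, differed in that the Atm-/- cells were the low group: it had 2541, 2307 and 2502 CPM in irradiated cells, 1436, 1466 and 1431 CPM in Atm-/- cells and 2322, 1829 and 2881 CPM in unirradiated Atm+/+ cells (0.76, SE 0.15, edgeR adjusted p = 0.0126). Pkm passed in 4 of the 6 fits with a compared library left out. Of 13 mitochondrially encoded genes, 0 passed by edgeR with all 15 libraries (1 higher at an unadjusted p under 0.05, 0 by DESeq2, 1 by limma), and 7 were higher in the 13. Their summed level was 14680 to 15716 CPM in irradiated cells, 11483 to 12860 CPM in Atm-/- cells and 9544 to 11738 CPM in unirradiated Atm+/+ cells.

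Of 26 genes of cholesterol synthesis 3 were lower and 0 higher by edgeR (0 higher at an unadjusted p under 0.05, by DESeq2 and by limma), with a median of -0.42, and 15 were lower and 2 higher in the 13 libraries. Insig1, which retains the sterol sensor in the endoplasmic reticulum, was lower by 0.93 (SE 0.16, edgeR adjusted p = 0.00525), while the enzyme Sqle (-0.37) did not pass. Among 35 antioxidant genes 1 was higher, the peroxiredoxin Prdx6 (0.68, SE 0.12, edgeR adjusted p = 0.00816), and 2 were lower, Txn1 (-0.63) and Gstm1 (-1.17), neither of which passed with any compared library left out, and in the 13 libraries 6 were higher and 13 lower. Of 47 lysosome and autophagy genes 0 passed in either direction by edgeR (2 higher and 4 lower at an unadjusted p under 0.05, 1 higher by DESeq2, 0 by limma), with a median of 0.06. In the 13 libraries 8 were higher and 5 lower, where 14.8% of all genes were higher and 16.3% lower. Of 4 Y-linked genes tested 0 passed by edgeR, by DESeq2, by limma or at an unadjusted p under 0.05, although all 4 were at 0.0273 CPM or less in Atm-/- replicate 3 and at 1.74 CPM or more in the other 5 libraries compared.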
